A study of Mus musculus with 8 samples.

Results

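In mouse embryonic stem cells, 446 short genomic stretches carried an OCT4 CUT&RUN peak in both hmC-Seal libraries and in none of the 4 libraries prepared in other ways. The hmC-Seal preparation selects fragments that carry 5-hydroxymethylcytosine (5hmC), so these are sites where enrichment was called after that selection and in no other preparation. The members were chosen by merging the peaks of all 6 libraries that overlapped by at least 1 bp, on chromosomes 1 to 19 and X. A stretch was kept where both hmC-Seal lists had an entry and neither the bisulfite nor the conventional lists had any. Of 15578 stretches in all, the members made up 2.86%. Only 273 of the 15578 had a conventional entry, so lacking one sets a stretch little apart. Among stretches called in both hmC-Seal libraries, 140 had a conventional call and 435 a bisulfite but no conventional call. A further 79 stretches, in 11 bins of 100 kb with 10 or more summits in any one list, had been left out. Since the peak calls of the libraries selected the members, the enrichment values below describe them and were not tested.

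OCT4, encoded by Pou5f1, is a POU-domain transcription factor that maintains pluripotency and binds, among other sequences, an octamer of the letters ATGCAAAT. 5hmC is made from 5-methylcytosine by the TET dioxygenases, is common in embryonic stem cells, and is usually found at enhancers and within gene bodies. CUT&RUN cuts and releases the DNA around an antibody-bound protein, so that the fragments can then be sorted by the modification they carry.

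The cells were male E14 mouse embryonic stem cells, labelled as strain C57BL/6J and otherwise untreated, grown without feeders in N2B27 medium with 2 inhibitors (2i). The strain rests on the labels only, since the methods name none for this line. OCT4 CUT&RUN DNA went into 3 preparations with 2 replicates each. Conventional libraries hold DNA whatever its modification, bisulfite libraries were restricted to methylated reads, and hmC-Seal libraries hold fragments whose 5hmC was glucosylated, tagged with biotin and pulled down. The design sets limits. The IgG controls were a conventional and a bisulfite library, with no hmC-Seal counterpart, so OCT4-bound 5hmC and 5hmC enrichment in general cannot be told apart. Bisulfite conversion also leaves 5hmC unconverted, so a bisulfite call does not separate 5mC from 5hmC. The sources do not say whether the replicates were separate cultures.

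Both hmC-Seal libraries were shallow. The estimated coverage was 0.717 fragments per position in replicate 1 and 0.156 in replicate 2, a ratio of 4.60. Summits with a recovered fragment number rested on a median of 18 fragments in replicate 1 and 5 in replicate 2. The fewest fragments behind a summit were 8 and 3 respectively. At this depth, a position without a call is therefore not shown to lack OCT4 or 5hmC.

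Members touched the promoters of 2 genes. In all, 2 of 32851 RefSeq promoter windows, from 250 bases before to 50 bases after an annotated start, were touched by a member, which is 0.00609%. All 15578 stretches together touched 134 windows. They belong to E2f3, an activator of cell-cycle genes, and Srrm4, a regulator of neuronal splicing. The RefSeq sequences before these starts are shown because they are where the members meet a promoter. Each is printed in the direction of transcription, from 250 bases before the start to the last base before it. Capitals mark the bases inside the member.

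E2f3, chr13:29986064-29986313 (GRCm38.p6, minus strand): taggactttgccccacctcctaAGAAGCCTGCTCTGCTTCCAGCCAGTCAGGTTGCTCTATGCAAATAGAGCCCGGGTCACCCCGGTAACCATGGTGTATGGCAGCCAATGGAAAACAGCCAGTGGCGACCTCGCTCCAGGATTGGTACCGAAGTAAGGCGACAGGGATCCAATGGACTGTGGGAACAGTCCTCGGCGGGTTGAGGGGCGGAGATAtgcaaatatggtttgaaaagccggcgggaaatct

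Srrm4, chr5:116591818-116592067 (GRCm38.p6, minus strand): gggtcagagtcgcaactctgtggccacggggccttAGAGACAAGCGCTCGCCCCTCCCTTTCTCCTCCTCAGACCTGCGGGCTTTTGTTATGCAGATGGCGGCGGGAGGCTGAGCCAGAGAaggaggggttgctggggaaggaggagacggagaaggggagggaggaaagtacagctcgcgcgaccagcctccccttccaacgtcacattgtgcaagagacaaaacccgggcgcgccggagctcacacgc

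The E2f3 member, chr13:29986098-29986291, covered bases -228 to -35 and ended 34 bp before the start. The letters ATGCAAAT occurred 2 times in the printed 250 bases, on the strand shown. The first, at bases -191 to -184, lay within the member, 4 bp from the summit of hmC-Seal replicate 1 and 50 bp from that of replicate 2. The second, at bases -35 to -28, shared 1 base with the member's edge. Fold enrichment over the local IgG background was 9.81 in replicate 1, on 23 fragments, and 4.72 in replicate 2, where the fragment number could not be recovered. The −log10 q was 13.0 in replicate 1 and 2.79 in replicate 2, so that this promoter was well above the calling threshold in the deeper library and near it in the shallower one.

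The Srrm4 member, chr5:116591947-116592032, covered bases -215 to -130 of the printed sequence, upstream of that start, and lay 530 bp inside the longest annotated span of the gene. Its folds were 9.34 on 17 fragments in replicate 1 and 6.92 on 7 fragments in replicate 2. Both summits fell within 5 bp of each other, and the octamer letters were not found in this window on either strand.

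Both promoters held CpG dinucleotides, the sites at which 5hmC is mostly found in mammals. There were 11 in the 250 bases before the E2f3 start, 9 of them within the member, and 17 before the Srrm4 start, 5 of them within the member. The median over all windows was 6, with quartiles of 2 and 16. GC content was 55.6% at E2f3 and 63.2% at Srrm4.

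The octamer, searched on both strands in the 250 bases before each start, was present in 526 of the 32851 windows (1.60%). Among the 134 windows touched by a stretch of any of the 6 libraries, 29 held it (21.6%). The share was 14 of 58 windows (24.1%) for stretches of hmC-Seal replicate 1 alone and 3 of 45 (6.67%) for those of replicate 2 alone. For stretches with a call in any bisulfite library it was 10 of 27 (37.0%). With only 2 windows, the members give no share to set against these, and a match of letters does not show that OCT4 bound them.

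The members were short, and the rule kept only stretches of overlapping entries, which limits how far apart their summits can lie. Width ranged from 85 to 450 bp, with a median of 115 bp, and the members covered 58579 bp in total. The median width of all stretches was 100 bp. In 426 of the 446 members each library had called a single summit. The best summits of both libraries lay a median of 6.5 bp apart, at most 10 bp apart in 279 members and at most 50 bp apart in 402. Over 100 bp separated them in 12 members. The median distance in stretches of both hmC-Seal libraries was 10.0 bp with a bisulfite but no conventional call. With a conventional call it was 14.5 bp, and these differences were not tested. The widest member, on chromosome X at chrX:170005370-170005819, had its summits 325 bp apart, the largest distance seen, with folds of 7.41 in replicate 1 and 6.05 in replicate 2. A member of 342 bp within Lin28b, the gene of an RNA-binding protein that blocks let-7 maturation, was similar in that its summits lay 232 bp apart.

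**Figure D1:**
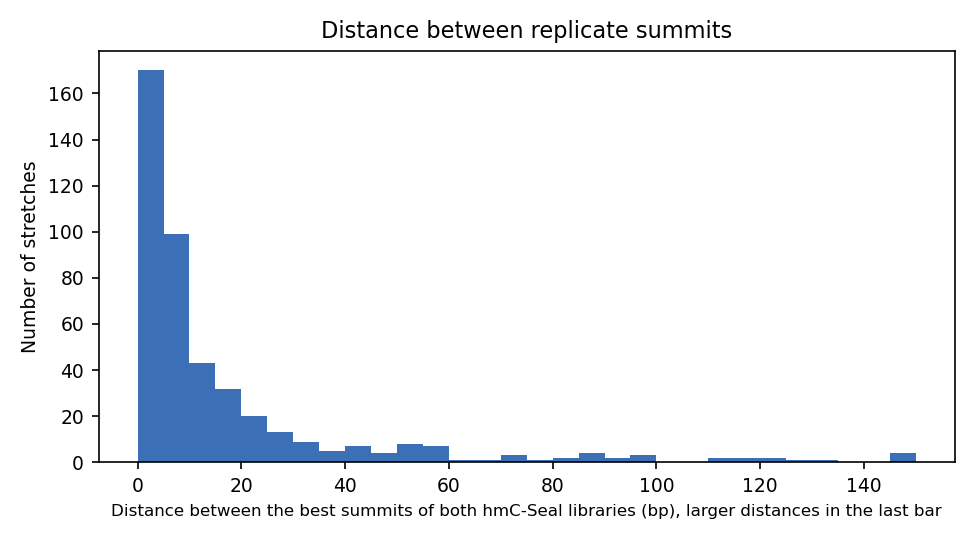
Distance in bp between the best summit of hmC-Seal replicate 1 and that of replicate 2 in each of the 446 members, in bars of 5 bp, with larger distances gathered in the last bar. Most members are in the leftmost bars, with a median of 6.5 bp.

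Fold enrichment was of like size in both libraries but ordered the members differently. It ranged from 1.35 to 45.2 in replicate 1, with a median of 7.24, and from 2.02 to 88.3 in replicate 2, with a median of 6.30. It was higher in replicate 1 for 226 members and in replicate 2 for 220. The rank correlation of fold enrichment across the 446 members was 0.13, and that of the number of fragments was 0.61 over the 361 members with a number in both libraries. These members share antibody, cells and control, and were selected on both calls, so the correlations are descriptive. An enrichment of at least 10-fold in both libraries was reached by 30 members, and of at least 20-fold in both by 8.

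**Figure D2:**
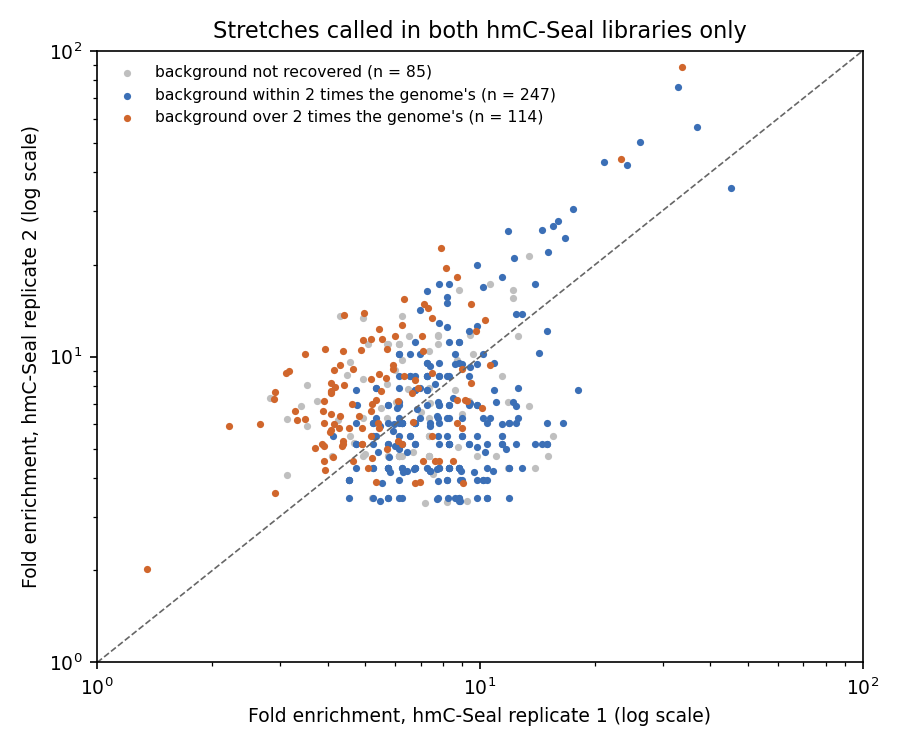
Fold enrichment over IgG of each of the 446 members in hmC-Seal replicate 1 (horizontal) and replicate 2 (vertical), both on log scales, with the line of equal values dashed. Colours give the local IgG background at the summits: 247 members near the genome's level in both libraries, 114 above 2 times that level in 1 or both, and 85 not recovered. Below 10-fold the points form a broad cloud, and above 20-fold in both libraries 7 of 8 lie above the line.

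The local IgG background is the denominator of the fold. It exceeded 2 times the genome's level at 119 of 408 member summits in replicate 1 (29.2%, 95% Wilson interval 25 to 33.8) and at 122 of 391 in replicate 2 (31.2%, 26.8 to 36.0). In stretches called in a single hmC-Seal library and no other, the shares were 18.1% (16.3 to 20.1) for replicate 1 and 17.2% (16.4 to 18.0) for replicate 2. In stretches that a bisulfite but no conventional library also called they were 25.6% (21.5 to 30.0) and 22.5% (18.6 to 26.9), and with a conventional call 28.2% (22.6 to 34.6) and 22.2% (15.8 to 30.2). The differences between these classes were not tested. The 247 members near the genome's level in both libraries had a median of 15 fragments in replicate 1 and 6 in replicate 2, with median folds of 7.80 and 6.05. The 114 with a raised background had medians of 29.5 and 15.5 fragments but folds of 5.21 and 7.18. The rank correlation of fold was 0.27 in the first of these groups, 0.30 in the second, and 0.04 in the 85 members whose background was not recovered. The part of the control signal in these calls was not tested.

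At 19 members the background reached at least 10 in replicate 1, between 10.0 and 418, and fold enrichment there ran only from 1.35 to 5.53 in replicate 1 and from 2.02 to 13.9 in replicate 2. The extreme was a member within Myo3a, a gene of an actin-based motor of hair cells, at chr2:22588547-22588799. It held 700 fragments in replicate 1 and 224 in replicate 2, yet its folds of 1.35 and 2.02 were the lowest of all members.

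The strongest members, ranked by the worse of their 2 ranks of −log10 q, had many fragments in the shallower library too. First was chr18:78198238-78198409 within Slc14a2, a urea transporter gene, with a fold of 33.8 on 166 fragments in replicate 1 and 88.3 on 159 fragments in replicate 2. Its background was raised, at 3.00 in replicate 1 and 0.812 in replicate 2. Next came chr13:77438945-77439056 within 2210408I21Rik, with 636 and 423 fragments but folds of only 3.48 and 10.2 over backgrounds of 147 and 40.6. Both backgrounds were raised, but that of the second was far higher.

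The third, chr16:5709148-5709251, lay 175542 bp before the start of Rbfox1, a neuronal splicing factor, with a fold of 37.0 on 71 fragments in replicate 1 and 56.2 on 64 fragments in replicate 2. The summits coincided to the base. A member within the lncRNA gene G630055G22Rik, chr18:48010408-48010530, had folds of 32.9 and 76.1 on 63 and 87 fragments. The member chr2:66189186-66189479 within Ttc21b, a gene of intraflagellar transport, had 2 summits in each library, with folds of 23.3 and 44.1. In all of these the enrichment was higher in replicate 2.

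The exception among the first 15 was chr9:115350828-115350959 within the lncRNA gene Gm30762, with a fold of 45.2 on 87 fragments in replicate 1 and 35.5 on 40 in replicate 2. Of the others, 2 lay nearest to a chemosensory receptor gene, and the share of such genes among all coding genes was not counted. The member chr7:5540439-5540648 was 4451 bp after the start of the vomeronasal receptor gene Vmn1r60, with folds of 24.2 and 42.4. The member chr2:88986071-88986187 was 2013 bp after the start of the olfactory receptor gene Olfr1214, with folds of 21.1 and 43.2. One member each fell within Fgf12, with folds of 16.7 and 24.4, within the immunoglobulin heavy chain locus Igh, with 16.0 and 27.7, and within Fbxo7, with 2.82 and 7.31.

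The remaining members of the 15 were outside gene spans. The member chr10:94592431-94592544 had folds of 26.2 and 50.2, and chr8:89419003-89419213, which lay 374841 bp before the start of Sall1, had 17.5 and 30.3. Lower folds were seen at chr15:67997921-67998025, with 4.41 and 13.7 over backgrounds of 26 and 7.31. At chr2:69355546-69355637, 12930 bp before the start of the bile salt export pump gene Abcb11, they were 3.14 and 4.11. Of the 15, 8 overlapped a gene span, 2 lay within 5 kb of a coding start, and the summits of all 15 were at most 8 bp apart. The nearest bisulfite or conventional entry to any of them was 83768 bp away.

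The number of fragments in replicate 2 was close to that in replicate 1 at these sites. They were ranked by the worse of both libraries, which asks for a strong call in the shallower one too. The fewest fragments behind a call, 8 in replicate 1 and 3 in replicate 2, also bound the ratio. What set the ratio was not tested. Among the 13 of the 15 with a number in both libraries, the ratio of replicate 1 to replicate 2 had a median of 1.04 and ranged from 0.724 to 2.17. Among the 30 members enriched at least 10-fold in both, 25 had numbers in both libraries, with medians of 30.0 and 29.0 fragments, and 9 had as many or more in replicate 2. Over all 361 members with both numbers the median ratio was 2.18 (quartiles 1.52 and 3.17), and 326 (90.3%) were below the coverage ratio of 4.60.

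Stretches that other preparations also called came closer to the ratio of coverage. The median was 3.55 (2.62 and 4.75) in 364 stretches called in both hmC-Seal libraries and a bisulfite but no conventional library, of which 72.3% were below 4.60. It was 4.84 (3.61 and 5.84) in 118 stretches with a conventional call, of which 47.5% were below. Every class in this comparison needed a call in both hmC-Seal libraries, or was restricted to stretches with fragments in both, and the difference between classes was not tested.

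**Figure D3:**
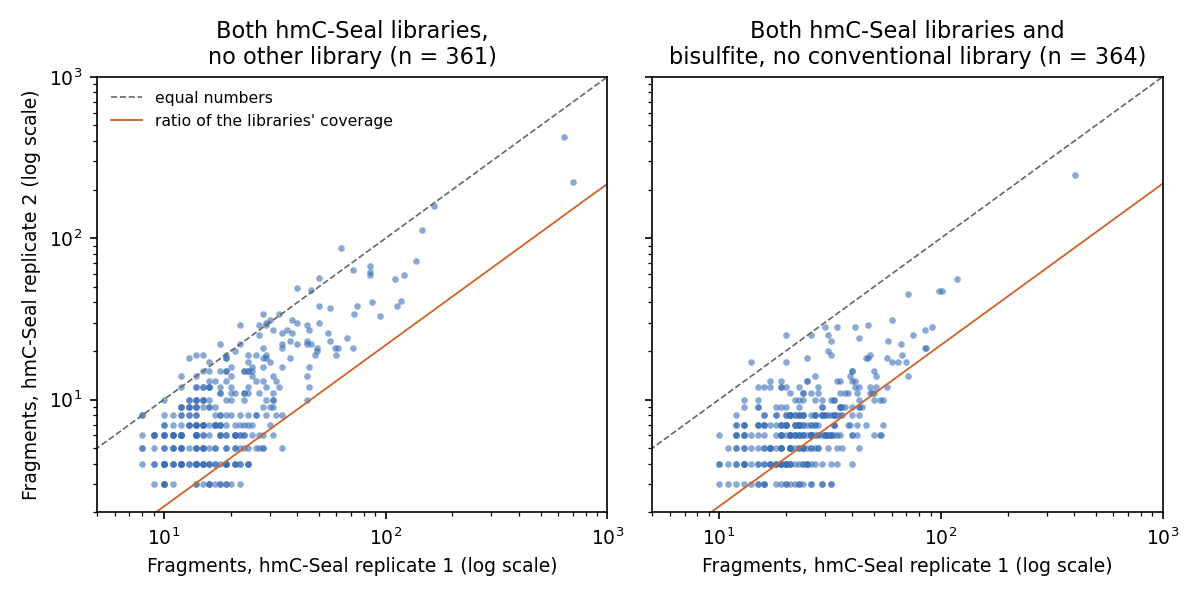
Number of fragments at the best summit in hmC-Seal replicate 1 (horizontal) and replicate 2 (vertical), on log scales, for 361 members (left) and 364 stretches that a bisulfite library also called (right). The dashed line marks equal numbers and the orange line the ratio of the libraries' coverage. The members with most fragments lie close to the dashed line, and the median ratio is 2.18 on the left and 3.55 on the right.

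Being called in 1 hmC-Seal library was a weak guide to the other among stretches outside the other preparations. Of 2156 stretches called in replicate 1 and in no bisulfite or conventional library, 446 were called in replicate 2 (20.7%, 19 to 22.4). From the side of replicate 2 the same 446 were 4.39% of 10167 (4.01 to 4.80). The list of replicate 2 was the longer, at 11615 summits against 3974 in replicate 1, which caps this share. Where a bisulfite library also had a call, the shares were 39.8% of 1092 and 64.3% of 676, and with a conventional call 62.5% of 224 and 96.6% of 145. Members came from the class of lowest sharing. The classes were not matched for the strength of their calls, and the difference was not tested.

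The share rose with the strength of the call. For replicate 1 it was 8.21% at a −log10 q under 3, 15.0% from 3 to 5, 22.3% from 5 to 10, 28.7% from 10 to 20, and 46.5% at 20 or more. For replicate 2 it was 1.81% under 3, 4.27% from 3 to 5, 6.26% from 5 to 10, 17.5% from 10 to 20, and 39.0% at 20 or more. Even among the strongest calls more than 1 in 2 had no counterpart in the other list. Among the members, 127 had a −log10 q under 3 in 1 or both libraries, 8 of them in both. Of 391 members with a fragment number in replicate 2, 73 rested on at most 4 fragments there.

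**Figure D4:**
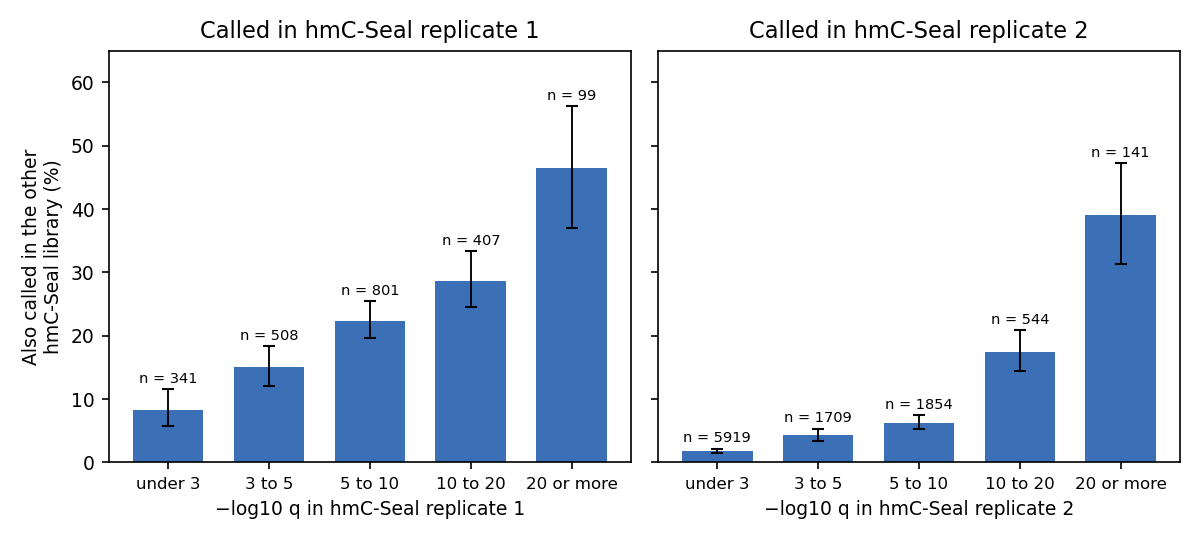
Percentage of stretches of 1 hmC-Seal library, without any bisulfite or conventional call, that the other hmC-Seal library also called, by −log10 q in replicate 1 (left) and replicate 2 (right). Bars are shares with 95% Wilson intervals and n above. The share climbs from 8.21% to 46.5% on the left and from 1.81% to 39.0% on the right.

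At the edge of the rule, the weakest calls were close to the threshold of the authors' q of 0.05. A member at chr1:108548750-108548953 had a −log10 q of 7.05 in replicate 1 but 1.31 in replicate 2, on 3 fragments. A member at chr5:88244122-88244235 showed the opposite, with 1.31 in replicate 1 and 10.6 in replicate 2. Members also came close to entries of other libraries without touching them. One within Sulf1, a heparan sulfate sulfatase gene, was 65 bp from a bisulfite or conventional entry, one within Spire1 179 bp, and one within Mpp6 239 bp. Such an entry lay within 1 kb of 6 members (1.35%) and within 10 kb of 19 (4.26%), at a median distance of 249800 bp. These shares fell between those of stretches called in replicate 1 alone, at 2.16% and 6.61%, and in replicate 2 alone, at 0.36% and 2.96%.

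The share of members inside genes was close to the share of the genome that genes cover. A RefSeq gene span (GRCm38.p6) was overlapped by 211 of 446 members (47.3%, 42.7 to 51.9), while gene spans cover 47.2% of the chromosomes. Protein-coding spans were overlapped by 39.2% and lncRNA spans by 8.74%, against 35.8% and 8.42% of all stretches. Exons and introns were not resolved, since the gene table holds spans only. Among all stretches 43.9% (43.1 to 44.7) overlapped a span, and 37.5% (31.9 to 43.5) of the 264 stretches called in both bisulfite libraries alone. Along the coding genes that held them, members fell 39, 24, 47, 34 and 32 times into 5 equal parts from start to end. The genes were long, with a median of 116 kb against 17.3 kb for all coding genes, as were those holding all stretches, at 131 kb.

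Within 1 kb of any gene start there were 6 members (1.35%, 0.618 to 2.90). The share was 5.61% (4.62 to 6.81) in stretches of replicate 1 alone, 2.41% (2.12 to 2.73) in those of replicate 2 alone and 2.27% (1.05 to 4.87) in those of both bisulfite libraries alone. It was 2.99% (1.75 to 5.05) in those of both hmC-Seal libraries with a bisulfite call, 5.49% (3.36 to 8.87) in those with a conventional call, and 2.70% (2.45 to 2.96) in all stretches. Within 5 kb of a start the members, at 12.1% (9.40 to 15.5), were near the 12.4% of all stretches. The median distance to the nearest coding start was 58080 bp, and 236 members were over 50 kb from one. These differences between classes were not tested.

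**Figure D5:**
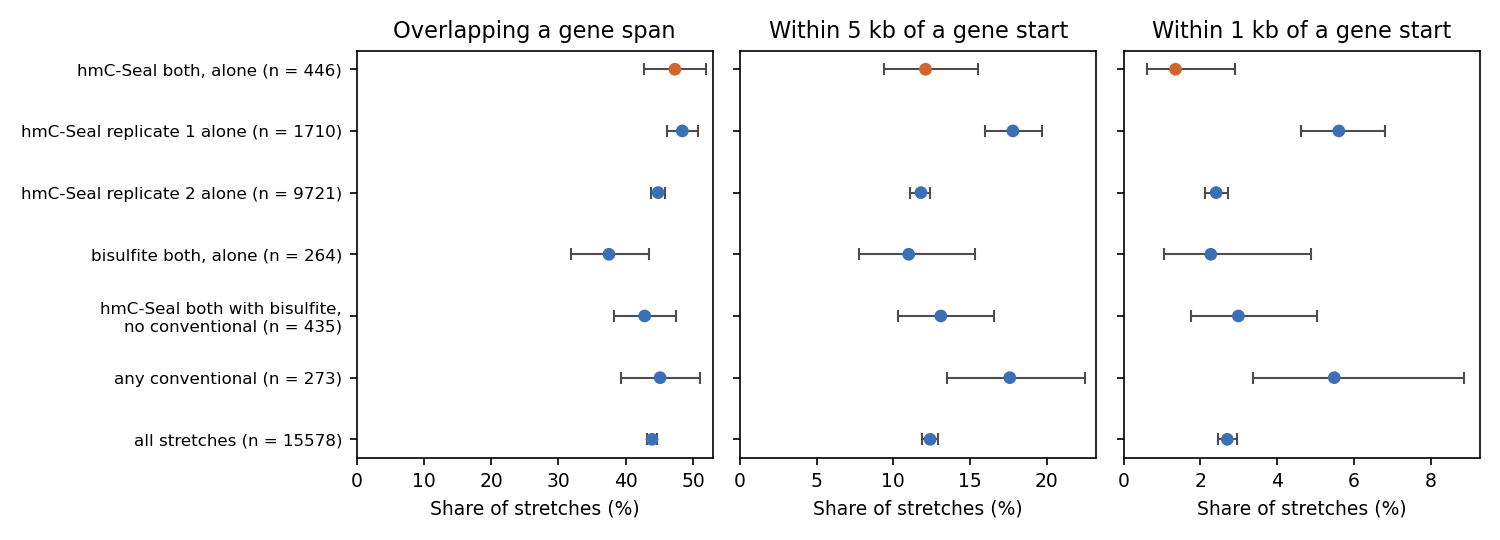
Share of stretches overlapping a gene span, within 5 kb of a gene start and within 1 kb of one, with 95% Wilson intervals, for the members (orange, top) and for the other classes and all stretches (blue). Members are at 47.3%, 12.1% and 1.35%, and the last is the lowest point of its panel.

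The 6 members within 1 kb of a start, named after their values were seen, included those at E2f3 and Srrm4. Another, chr6:122340699-122340801, lay 472 bp before the start of Phc1, a subunit of Polycomb repressive complex 1 that is highly expressed in pluripotent cells. Its folds were 6.27 on 11 fragments and 5.19 on 5 fragments. A further one, chr12:32824731-32824873, was within Nampt, whose product makes NAD, and 615 bp after the start of the lncRNA gene Gdap10, with folds of 8.59 and 9.44. The others were near the lncRNA genes Gm16318, within the span of Vcan, and Gm32406, with folds of 9.0 and 6.57 in replicate 1 and 5.51 in replicate 2 for both.

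Within 3 kb of a coding start there were 28 members, 14 before and 14 after it. Their folds ranged from 3.49 to 21.1 in replicate 1, with a median of 8.40, and from 3.43 to 43.2 in replicate 2, with a median of 6.28, which is close to the medians of all members. No share within 3 kb was counted over all stretches. Within 5 kb of a coding start it was 8.52% for members and 7.80% for all stretches. The genes near the 28 members were of mixed kinds. They included 3 olfactory receptor genes, a family whose share among all coding genes was not counted. Others were the histone gene H2ac6 with folds of 10.3 and 13.2, and Sap30, a subunit of the SIN3 histone deacetylase complex, with 6.69 and 6.09. Ago1, an Argonaute protein of RNA silencing, had 11.8 and 4.32, and the helicase gene Helb had 14.3 and 10.3.

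Members near genes of the pluripotency network and of the 5hmC pathway were counted against all coding genes. A coding start within 50 kb of a member was found for 419 of 20924 protein-coding genes (2.00%). In the listed groups this held for 1 of 28 genes of the pluripotency network (Mycn), 1 of 21 genes of DNA methylation and demethylation (Uhrf2), 2 of 33 signalling genes (Nodal and Fgf5), none of 26 lineage regulators and none of 23 imprinted genes. Counts this small do not separate any list from the background.

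The member nearest to Mycn, a proto-oncogene of the MYC family, was chr12:12943301-12943480, 1465 bp before its start. It had a fold of 7.72 on 14 fragments in replicate 1 and 3.43 on 3 fragments in replicate 2. The member nearest to Nodal, a TGF-beta family ligand, was chr10:61415971-61416200, 1772 bp before its start. Its folds were 9.85 on 18 fragments and 3.46 on 3. At both, the −log10 q in replicate 2 was 1.48, so these calls rested on the minimum number of fragments seen in that library.

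Fgf5, a ligand that marks the exit from the naive state, had a member 26652 bp after its start, chr5:98280836-98280936, with folds of 7.29 on 13 fragments and 7.78 on 8. Uhrf2, a reader of modified cytosine, had one 41224 bp before its start, with folds of 5.23 and 4.67 over backgrounds of 6.00 and 1.35. Pax3, a regulator of neural crest and muscle, held a member 76993 bp after its start, with folds of 8.19 and 3.94. Of these genes, Fgf5 alone had at least 8 fragments in both libraries at the genome's background.

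The members overlapped 218 genes, 173 of them coding and 40 lncRNA, and 214 of these held a single member. The 4 genes with 2 members were Cntnap2, a neurexin-family adhesion gene, Magi2, a scaffold gene, Myo3a, and Pds5b, a cohesin regulator. In Cntnap2 the folds were 9.34 and 5.19 at one member and 3.89 and 6.62 at the other. In Pds5b they were 9.60 and 10.2 at one and 5.75 and 3.46 at the other. With the bins of many summits left out, 16 members lay within 100 kb of another, 5 of them within 10 kb, and the median distance to the next was 1808000 bp. A group on chromosome 14, named after its values were seen, comprised chr14:3100608-3100738, chr14:3108437-3108544 and chr14:3167471-3167579, with folds of 6.35, 7.13 and 7.89 in replicate 1 and 15.4, 14.9 and 22.7 in replicate 2. Keeping the 11 bins left out would have given 462 members.

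All 20 chromosomes held members, from 0.104 per Mb on chromosome 9 (13 members) to 0.268 per Mb on chromosome 10 (35 members). Chromosome X held 23 (5.16%, 3.46 to 7.62), where X makes up 6.49% of the length, and all stretches had 5.43% there. The share of length takes no account of the cells being male. The share on X was 2.76% (1.58 to 4.76) in stretches that both hmC-Seal and bisulfite libraries called and 1.83% (0.785 to 4.21) in those with a conventional call. These intervals, like the others, cover counting error only, since stretches of the same libraries are not replicates.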

How the data were processed

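The deposited files analysed were 6 peak lists, 1 for each OCT4 library, and the IgG libraries entered only through them. Per the labels and methods, the authors trimmed reads with fastp 0.19.4. Alignment to GRCm38 used Bowtie 2 2.4.1 for conventional libraries and Bismark 0.22.3 for bisulfite and hmC-Seal libraries. The aligner therefore differed along with the preparation between hmC-Seal and conventional lists. Fragments of at most 120 bp were kept, and peaks were called in each library against IgG with MACS 2 at a q-value of 0.05, calling every summit. Which IgG library served hmC-Seal is not given in the sources used here. Peaks were called without spike-in calibration, and each list came from 1 library. No common scale was set between lists, so folds set side by side between replicates describe each list and were not tested. The deposited lists give each summit's fold enrichment, its p- and q-values as −log10, and a score that the authors' caller derived from the q-value. The fold is the pileup plus 1, divided by the IgG background there plus 1. At a low background it is therefore far below the plain ratio.

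Fragments and background were recovered from the fold and the Poisson p of each summit, and were estimates. The tolerance was 0.02 of a fragment, and wider at high pileups. This step was tested only on data simulated from the same formula, at low backgrounds and counts. The highest values reported here lay outside that test. It gave numbers for 89.7% and 91.8% of hmC-Seal summits. The genome background was 0.580 in replicate 1 and 0.156 in replicate 2. The best summit was that of highest −log10 q. Gene starts used the strand of RefSeq promoter sequences (26794 genes) or of GENCODE M1 by symbol (8747); 14013 of 49554 genes had none and were used as spans only. The regions named were the first 15 by worse rank, the widest, those nearest a gene start, a listed gene or another library's entry, those of lowest −log10 q, and others where so stated. Members and gene lists were chosen with earlier results of these data known. Sequence composition at members was computed only in RefSeq promoter windows, as a GRCm38 genome was not used here. Analyses used Python 3.11.15, pandas 2.3.3 and scipy 1.17.1.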

Additional observations from a re-analysis of the deposited data

How the results depend on the processing

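Of 85 alternative values for 7 results, 73 stayed near the reported value. Near meant within 1.5 times for counts and medians, within the 95% interval for shares, and within 0.1 for the correlation. Only the correlation could change sign, and it stayed positive. A −log10 q of at least 5 left 248 members, which overlapped 220 of the 446, with a rank correlation of 0.26 and summits 4.0 bp apart. At a −log10 q of at least 3 the correlation was 0.24, and with at least 10 and 5 fragments 0.26. With hmC-Seal lists of 2000 regions each, 138 members were left, with a median fold of 9.51 in replicate 2, a correlation of 0.58 and summits 3.0 bp apart. Leaving out 1 library gave 446 to 10168 stretches, the highest without hmC-Seal replicate 1 and 2162 without replicate 2, because a single hmC-Seal library then defines them. Without bisulfite replicate 1 there were 530 and without bisulfite replicate 2 there were 545. The share within 5 kb of a gene start was then 11.8% to 16.6%, the latter without hmC-Seal replicate 2. Values that need both libraries were not computed when either was left out. No paired analysis was possible because the members come from no test between groups.

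Depth limits these results: in replicate 2 a call can rest on 3 fragments. The absence of a bisulfite or conventional call is not absence of signal, and the lack of an hmC-Seal IgG library leaves OCT4-bound and general 5hmC enrichment not to be told apart.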
